A study of Mus musculus with 8 samples.

Results

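The response of B cells without Ebi3 to a tumor was measured by RNA sequencing in 4 of the 8 libraries of a mouse study. Their membership is defined by the labels: genotype B-EBi3-, here EBi3KO, with tumor status Tumor (2 libraries, EBi3KO tumor) or WT (2 libraries, EBi3KO nontumor). All came from B cells of C57BL/6 spleens, which the series describes as naive, and in both groups Ebi3 is missing from the B cells. The comparison rests on reading a tumor status of WT as no tumor, since no label defines it. The tumor is pancreatic according to the series title. Not given in the sources used here are the tumor's cell line, the Cre driver of the deletion, the age of the mice, and whether 1 mouse or several gave each group's libraries. The other 4 libraries, from WT mice with and without a tumor, served to estimate the spread and to show where the EBi3KO response differed.

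EBI3 is a secreted protein that pairs with a partner chain to make a cytokine: with p35, the product of Il12a, it forms IL-35, and with p28 it forms IL-27. IL-35 from B cells restrains T cell responses and has been linked to the growth of pancreatic tumors. The spleen in which naive B cells rest is also, in mice, a site of red cell production beside the bone marrow, and it holds macrophages that clear old red cells.

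The deposited values were normalized counts, that is reads per gene divided by a size factor of each library, from which whole reads were recovered. The EBi3KO nontumor libraries held 21291892 and 22366598 reads, and the EBi3KO tumor libraries 28297319 and 26846836. Defining B cell markers were abundant in all 4 libraries: Cd79b, a chain of the antigen receptor, stood at 60751 and 63310 normalized counts in nontumor and at 57124 and 57999 in tumor. Pax5, the factor that holds B cell identity, stood at 3497 and 2537 against 3304 and 3312. Of 8 tested markers of this kind, 0 passed the test of the tumor effect, and 2 were called higher and 0 lower where the tumor libraries were counted as 2 samples. Macrophage, erythroid and granulocyte RNA was present as well, and its values stand beside the results below.

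The EBi3KO tumor libraries were closer to sampling noise than any other pair. Their reads differed with a chi-square of 1.97 per degree of freedom, where sampling alone gives about 1, against 12.4 to 19.1 in the other pairs. Of 13011 tested genes, 124 (0.953%) differed by more than 2-fold between them, against 634 (4.87%) between the EBi3KO nontumor libraries. By that count the WT tumor pair, at 127 genes (0.976%), was about as even, and WT nontumor stood at 565 (4.34%). The excess over sampling noise was 0.0849 of the smallest excess in another pair, below the limit of 0.1 set for counting the pair once. That limit was set with the likeness of this pair already known, and the chi-square itself exceeded sampling noise. By this rule the EBi3KO tumor libraries are printed library by library but enter the test as 1 sample, their mean, so no SD is given for EBi3KO tumor. The nontumor pair was the less even side of the comparison. Hspa1a, for the inducible chaperone HSP70, differed 9.33-fold between those libraries, at 35480 and 3801 normalized counts.

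**Figure D1:**
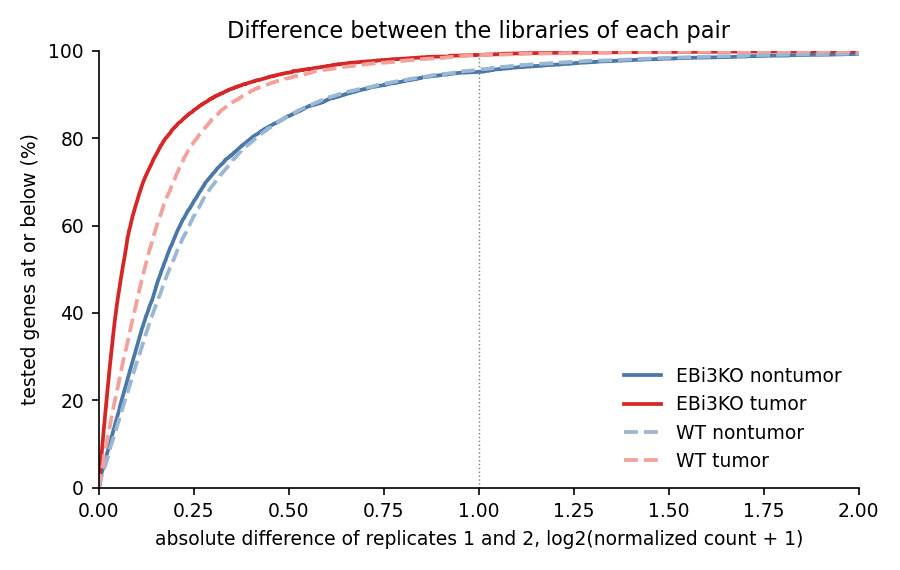
Cumulative share of the 13011 tested genes (y axis, percent) by the absolute difference between the 2 libraries of a pair (x axis, log2(normalized count + 1)), with 1 line for each group. The dotted line marks a 2-fold difference, which 0.953% of genes exceeded in EBi3KO tumor, 0.976% in WT tumor, 4.34% in WT nontumor and 4.87% in EBi3KO nontumor.

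Ebi3 itself was low in every EBi3KO library. Its normalized counts were 12.8 and 11.5 in nontumor and 8.70 and 11.0 in tumor, and the ranges of the groups did not overlap, with nontumor slightly higher. The difference of -0.27 on the log2 scale did not pass the test (SE 0.393, adjusted p = 0.661, limma). WT B cells without a tumor were about as low, at 8.94 and 11.0, so the level of Ebi3 separates the genotypes in the tumor libraries alone. A low level does not by itself establish the genotype. The WT tumor libraries held 201 and 164. The tumor effect on Ebi3 in EBi3KO minus that in WT was -4.33 on the log2 scale (adjusted p = 0.00197, limma). Il12a, for the p35 chain, was at 459 and 321 in nontumor and at 361 and 356 in tumor, with overlapping groups and no call (adjusted p = 0.843, limma).

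Many more genes fell than rose with the tumor. With limma and a Benjamini-Hochberg adjusted p below 0.05 over the 13011 genes, 653 (5.02%) were lower in tumor and 80 (0.615%) were higher. Of these, 397 of the lower and 23 of the higher genes changed at least 2-fold. The groups did not overlap at far more genes: both tumor libraries lay below both nontumor libraries at 5078 genes (39.0%) and above them at 4760 (36.6%). The median difference over all tested genes was -0.01 on the log2 scale. Counting the tumor libraries as 2 samples gave 2401 lower (18.5%) and 1841 higher (14.1%), and quantile normalization gave 681 lower and 200 higher, so the split between falls and rises depends on these choices. Without nontumor replicate 2, 201 genes were lower and 8 higher, and without nontumor replicate 1, 665 and 379. Leaving out a WT library, which changes only the estimate of the spread, gave 865 lower and 378 higher or 846 and 369 for the nontumor replicates 1 and 2, and 477 lower and 17 higher for either tumor replicate.

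Of the 84 genes past the test that are named here, 23 passed under all 20 alternative settings. They were Rhd, Rhag, Slc4a1, Ermap, Car2, Cldn13, Slc38a5, Btnl10, Ccne2, Ccne1, Ccna2, E2f8, Rrm2, Rrm1, Cdc6, Mcm7, Tk1, Ccnb2, Gclm, Asns and Slc16a1, which fell, and Amy2a5 and H2-Q6, which rose. Amy2a5 had 0 reads in EBi3KO nontumor and H2-Q6 had 1, so both reached the filter for testing through other libraries. Their passing is not evidence of stability. No named gene past the test changed direction in any of these settings. Leaving out an EBi3KO nontumor library leaves 1 EBi3KO sample on each side, so the spread then comes from the WT pairs alone. Without nontumor replicate 2, 29 of the 59 named falls and 21 of the 25 named rises no longer passed, the exceptions among rises being Cxcr4, Zfp36l2, Amy2a5 and H2-Q6.

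Of the lists, the erythroid markers had the lowest median. Erythroid precursors switch on hemoglobin, heme synthesis, membrane skeleton and blood group genes under the factors GATA1 and KLF1. Of 16 tested erythroid markers, 15 were lower in tumor and 0 higher, where 5.02% and 0.615% of all tested genes were. The median was -2.66 on the log2 scale. The remaining one, Hba-a2, named here after its values were seen, was at -1.94 (adjusted p = 0.126, limma). All 16 lay below the nontumor libraries in both tumor libraries, where 39.0% of all genes did. The list's median was -2.73 without nontumor replicate 1 and -2.43 without nontumor replicate 2. Their summed share of all reads was 1.25% and 1.78% in the nontumor libraries and 0.331% and 0.340% in the tumor libraries.

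Among single genes, red cell membrane proteins fell steeply. Rhd, the Rh blood group protein, fell from 2143 and 1676 to 119 and 133, which is 14.9-fold lower (log2 -3.90, SE 0.179, adjusted p = 9.28e-05, limma). Its partner Rhag, the Rh-associated ammonium channel, fell from 1137 and 888 to 80.0 and 83.4. Slc4a1, the anion exchanger band 3, fell from 3976 and 4926 to 397 and 357. Nontumor replicate 1 was the higher of its pair for Rhd and Rhag and the lower for Slc4a1, and no tumor library came near either.

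Ermap, a red cell adhesion protein, fell from 1289 and 1351 to 216 and 188. Car2, a carbonic anhydrase abundant in red cells, fell from 14357 and 12775 to 1945 and 1956. Other leading falls were outside the erythroid list, as was Rhd. Among them were Cldn13 (1609 and 1433 against 83.5 and 68.7), a claudin, and Slc38a5 (764 and 651 against 43.5 and 44.9), an amino acid transporter. Darc, the Duffy chemokine receptor, was another (243 and 115 against 11.3 and 10.1). Btnl10, a butyrophilin-like gene, fell from 130 and 143 to 9.57 and 8.25, and Fn3k, a kinase that removes sugars from glycated proteins, from 330 and 187 to 19.1 and 11.9.

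The promoters of the Rh pair are shown because both carry the site that GATA factors bind close to the start. They are RefSeq sequences (GRCm38.p6), the 100 bases before the start, 5′ to 3′ on the coding strand, with the GATA letters in capitals: Rhd on the plus strand at chr4:134864436-134864535 and Rhag on the plus strand at chr17:40811049-40811148.
Rhd: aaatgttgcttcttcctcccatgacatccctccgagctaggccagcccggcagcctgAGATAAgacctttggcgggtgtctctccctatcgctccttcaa
Rhag: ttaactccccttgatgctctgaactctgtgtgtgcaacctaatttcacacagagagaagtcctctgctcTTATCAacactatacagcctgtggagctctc
The letters searched were AGATAA and TGATAA on both strands in the 250 bases before each start. Of the 16 genes of the erythroid list, which does not hold Rhd, 10 matched an entry, with 11 promoters. Of these promoters 72.7% held a match, against 9.95% of the 13053 promoters of tested genes and 16.6% of all 32851 promoters in the table. Over all genes called here, a match stood in 14.9% of the promoters of lower genes and 14.3% of those of higher genes. A match describes the letters and does not show that a factor binds there.

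Markers of some other cells fell with the erythroid genes. Of 17 macrophage markers 12 were lower and 0 higher, with a median of -0.96 on the log2 scale. C1qa, a complement chain made by macrophages, fell from 11963 and 14348 normalized counts to 5659 and 5600 (log2 -1.22, SE 0.194, adjusted p = 0.0125, limma). C1qc fell from 10694 and 12757 to 5187 and 5241, Csf1r, the receptor for the macrophage growth factor, from 14477 and 17476 to 8364 and 8472, and Cd68, a lysosomal membrane protein of macrophages, from 2615 and 3116 to 1425 and 1382. The summed share of the list was 0.584% and 0.731% of reads in nontumor and 0.384% and 0.382% in tumor, so it fell less steeply than the erythroid share. Without nontumor replicate 2, Cd68 was the 1 of the 17 that still passed, and C1qa had an adjusted p of 0.093 (limma).

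Of 10 tested granulocyte markers 7 were lower and 0 higher, with a median of -2.59. S100a8, an abundant neutrophil protein, fell from 1462 and 1529 to 194 and 207, and Lcn2, an iron-binding granule protein, from 148 and 158 to 15.7 and 12.8. Camp, a granule peptide precursor, fell from 318 and 281 to 59.1 and 52.2. None of the 7 passed without nontumor replicate 2, and 4 granulocyte genes passed without nontumor replicate 1. This list was a far smaller part of the libraries, at 0.0171% and 0.0173% of reads in nontumor and 0.00332% and 0.00330% in tumor. In stromal and endothelial markers 3 of 6 tested were lower, among them Stab2, a scavenger receptor of spleen sinus cells, at 1151 and 1517 against 658 and 699, with 0 passing without nontumor replicate 2. Markers of T cells (9), NK cells (9), platelets (9), basophils and mast cells (7) and dendritic cells (10) had 0 calls in either direction. In libraries of mixed cells, fewer cells of a type and less RNA per cell cannot be told apart.

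**Figure D2:**
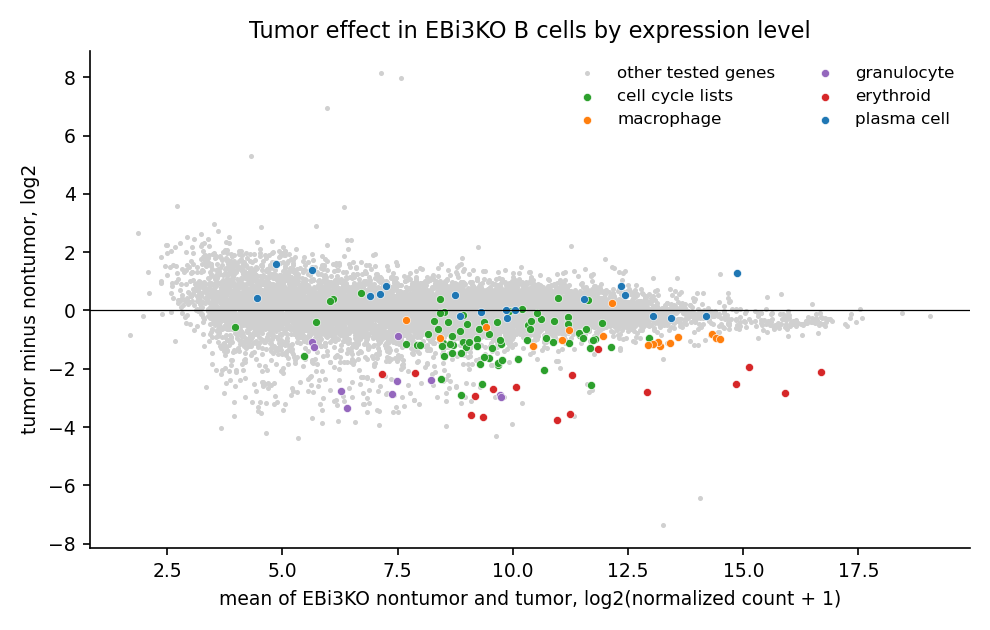
Tumor minus nontumor in EBi3KO (y axis, log2) against the mean of both groups (x axis, log2(normalized count + 1)) for the 13011 tested genes, with members of 5 sets of lists in color. The erythroid genes, with a median of -2.66, and the granulocyte genes, with a median of -2.59, lie below most cell cycle genes, and the median of the macrophage genes is -0.96.

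Genes of the cell division cycle fell broadly. A cell commits to division when cyclin D and E kinases release E2F factors from RB proteins, which switches on the enzymes that copy DNA, and the mitotic genes follow under the B-Myb and FOXM1 factors. Of 77 tested members of the replication, mitosis and cyclin lists, 47 were lower. DNA replication genes accounted for 23 of 26 lower and 0 higher, with a median of -1.005, and mitosis genes for 16 of 26 lower and 0 higher, with a median of -1.17. Of the 25 cyclins, CDK inhibitors, RB and E2F genes 8 were lower and 0 higher, with a median of -0.40. Without nontumor replicate 2 these counts were 9, 9 and 4, and with the tumor libraries as 2 samples 25, 22 and 14, the last 2 beside 1 and 3 called higher. The erythroid share of reads given above fell over the same libraries, and its part in the cell cycle result was not tested.

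At the start of the cycle, Ccne2, a cyclin E that drives entry into S phase, fell from 879 and 781 normalized counts to 107 and 112. This was 7.51-fold lower (log2 -2.91, SE 0.164, adjusted p = 0.000161, limma), the largest fall among the cyclins. Ccne1 fell from 1014 and 991 to 344 and 321, and Ccna2, the cyclin of S and G2 phase, from 2541 and 2740 to 656 and 618.

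E2f8, a repressor in the E2F family that is itself an E2F target, fell from 622 and 542 to 104 and 120. Ccnd3, a D-type cyclin used by lymphocytes, fell less, from 4722 and 4379 to 2270 and 2234. For all 5 of these genes each pair of libraries was tight and the groups did not overlap.

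Among enzymes that supply and copy DNA, Rrm2, the regulated subunit of ribonucleotide reductase, fell from 6022 and 5252 normalized counts to 952 and 967. It was 5.86-fold lower (log2 -2.55, SE 0.134, adjusted p = 0.000136, limma). Its partner Rrm1 fell from 5904 and 6757 to 2704 and 2555, a smaller change than that of Rrm2.

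Cdc6, which loads the replicative helicase, fell from 1149 and 1054 to 170 and 212, and Mcm7, a subunit of that helicase, from 4531 and 4749 to 1913 and 1916. Tk1, the thymidine kinase of S phase, fell from 1725 and 1616 to 511 and 542. Cdt1, Rfc3 and Ung, singled out after their values were seen, were the 3 replication genes that did not pass, at -0.31, -0.39 and -0.36 on the log2 scale.

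Among mitosis genes Ccnb2, a B-type cyclin, fell from 1252 and 1312 to 344 and 350 (log2 -1.88, SE 0.163, adjusted p = 0.000827, limma). Ccnb1 fell from 1018 and 1159 to 368 and 335, Birc5, the survivin subunit of the chromosomal passenger complex, from 1293 and 1379 to 430 and 401, and Prc1, a protein of the spindle midzone, from 540 and 556 to 248 and 243. Mki67, a proliferation marker added after its values were seen, was at 859 and 661 in nontumor and 551 and 581 in tumor, a difference of -0.41 that did not pass the test (adjusted p = 0.18, limma).

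The upstream sequences of the B-type cyclins are shown because the CCAAT boxes, which the factor NF-Y binds, stand in spaced rows there, and because the sequence called CHR is known to bring the mitotic regulators to such genes. They are RefSeq sequences (GRCm38.p6) read 5′ to 3′ up to the last base before the start on the minus strand of chr9:70421555-70421724 for Ccnb2 and chr13:100786487-100786586 for Ccnb1, with TTTGAA (CHR) and CCAAT in capitals.
Ccnb2: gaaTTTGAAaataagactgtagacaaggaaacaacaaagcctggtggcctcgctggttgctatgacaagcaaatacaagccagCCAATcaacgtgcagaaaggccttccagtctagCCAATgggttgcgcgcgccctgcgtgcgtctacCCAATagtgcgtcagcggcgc
Ccnb1: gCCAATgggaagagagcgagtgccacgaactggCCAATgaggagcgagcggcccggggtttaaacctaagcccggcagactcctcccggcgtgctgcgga
The boxes of Ccnb2 begin 87, 54 and 21 bases before the start, and those of Ccnb1 99 and 67 bases before it. The TTTGAA of Ccnb2 lies further upstream, so a longer stretch is shown for that gene. No TTTGAA was found in the 250 bases before the start of Ccnb1. Bases after the start and other forms of the CHR were not searched, so a CHR there would be missed. Whether the TTTGAA of Ccnb2 acts as a CHR was not tested. As above, a match does not show that a factor binds. On either strand of the 250 bases before the start, CCAAT was found in 88.0% of the 25 promoters of mitosis genes (24 of 26 genes matched), against 35.4% of the promoters of tested genes and 33.8% of all promoters. TTTGAA was found in 36.0% of them, against 11.2% and 16.0%. For the replication genes, of which 22 matched with 26 promoters, CCAAT stood at 53.8%. The E2F letters TTTGGCGC, TTTCGCGC, TTTGGCGG or TTTCCCGC stood at 26.9%, against 3.44% and 1.96%. In promoters of all genes called lower, CCAAT stood at 42.8%, TTTGAA at 14.3% and the E2F letters at 4.90%. For genes called higher these were 18.6%, 11.4% and 2.86%. CCAAT was also found in 63.6% of the erythroid promoters.

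**Figure D3:**
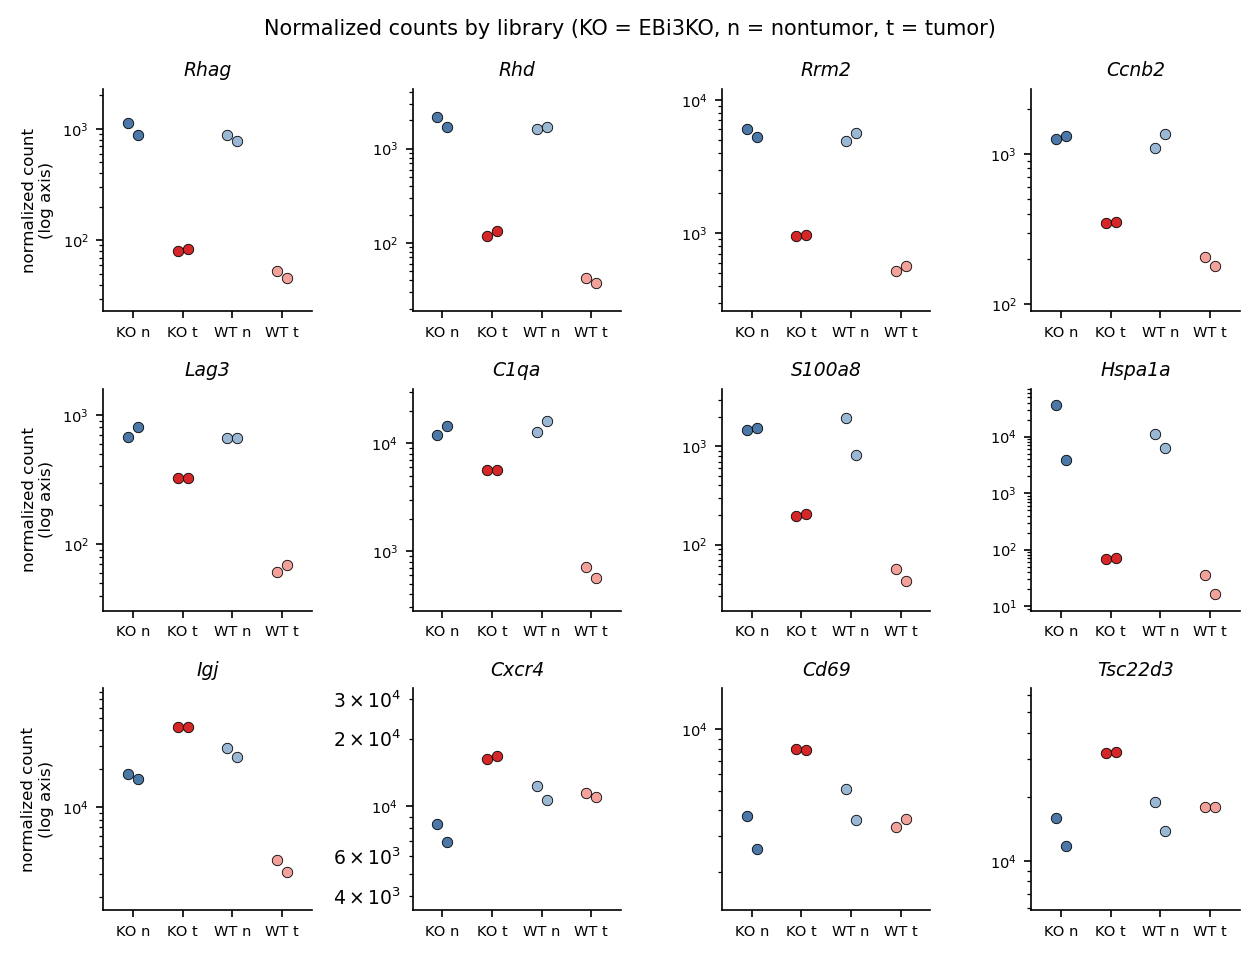
Normalized counts on log axes for 12 genes in the 8 libraries, with 1 point per library and both libraries of a group side by side. Rhag, Rhd, Rrm2, Ccnb2, Lag3, C1qa, S100a8 and Hspa1a are lower in both EBi3KO tumor libraries than in both EBi3KO nontumor libraries, and Igj, Cxcr4, Cd69 and Tsc22d3 are higher.

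The falls of largest size among the 13011 tested genes were those of Hspa1a and Hspa1b, where the nontumor libraries differed widely. Heat shock chaperones refold damaged proteins, and their genes are switched on by heat and other stress. Hspa1a fell from 35480 and 3801 normalized counts to 67.0 and 71.5, and Hspa1b from 59338 and 8859 to 250 and 276. On the log2 scale this was -7.37 (SE 1.09, adjusted p = 0.00905, limma) and -6.44 (SE 0.877, adjusted p = 0.00648, limma). These neighboring genes encode almost the same protein, so the split of reads between them is uncertain, and their promoters are nearly the same too: 99 of the 100 bases before the start are identical. Both are on the minus strand, Hspa1a at chr17:34972157-34972256 and Hspa1b at chr17:34959239-34959338 (RefSeq, GRCm38.p6), with a CCAAT box on the other strand, ATTGG, in capitals.
Hspa1a: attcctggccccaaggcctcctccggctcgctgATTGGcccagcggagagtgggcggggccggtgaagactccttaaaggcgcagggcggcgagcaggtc
Hspa1b: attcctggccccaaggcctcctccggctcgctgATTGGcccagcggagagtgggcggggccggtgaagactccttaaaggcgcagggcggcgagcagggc

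The other heat shock genes moved much less. Of 17 in the list 4 were lower and 0 higher, the remaining pair being Hspe1 (7523 and 7470 against 5018 and 4967) and Hspd1 (6610 and 6376 against 4768 and 4615), which together form the mitochondrial folding chamber. The abundant constitutive chaperone Hspa8 was at 62853 and 60581 against 43974 and 43585 and did not pass (adjusted p = 0.068, limma). In both tumor libraries 16 of the 17 lay below nontumor, where 39.0% of all genes did. Counting the tumor libraries as 2 samples gave 11 lower and 1 higher. Neither Hspe1 nor Hspd1 passed when either nontumor library was left out. Hspa1a and Hspa1b passed there, but their wide nontumor gap does not enter the spread in those fits, so this does not show stability. Hspa1a and Hspa1b did not pass with the EBi3KO libraries alone, without a variance trend or without the filter.

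Most tested genes of metabolism and of protein synthesis did not pass. Antioxidant genes under NRF2 gave 5 lower and 0 higher of 15, with a median of -0.58. Nqo1, a quinone reductase, fell from 197 and 213 normalized counts to 41.8 and 34.8, Gclm, the regulatory subunit for glutathione synthesis, from 1195 and 1086 to 459 and 494, and Hmox1, the heme-degrading enzyme that is also on the macrophage list, from 25011 and 32318 to 14540 and 14648. Gpx1 and Sod1 were the others, at -1.06 and -0.77 on the log2 scale. Of the 5, Gclm was the 1 that passed without nontumor replicate 2.

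Cytosolic ribosomal protein genes gave 1 call in 79, Rps12, which fell from 123200 and 130260 to 73402 and 74062. All 79 lay below nontumor in both tumor libraries, where 39.0% of all genes did, with a median of -0.45, and 70 were lower where the tumor libraries were counted as 2 samples. Their share of reads was 20.8% and 21.3% in nontumor and 17.5% and 17.6% in tumor. The nuclear-encoded respiratory chain gave 5 lower of 77 with a median of -0.46, where 5.02% of all tested genes were lower. Among the 5 was Atp5e (10296 and 10797 against 6522 and 6663), a subunit of ATP synthase. Of the 77, 75 lay below nontumor in both tumor libraries, and 67 were lower with the tumor libraries as 2 samples. Neither Rps12 nor Atp5e passed when either nontumor library was left out. Mitochondrial ribosomal proteins gave 1 of 76, proteasome subunits 0 of 39 and the tricarboxylic acid cycle 0 of 19. In both tumor libraries 65 of the 76, 38 of the 39 and all 19 lay below nontumor, where 39.0% of all genes did.

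Single enzymes and transporters fell further. Asns, which makes asparagine and is a target of the stress factor ATF4, fell from 962 and 940 normalized counts to 168 and 165 (log2 -2.51, SE 0.211, adjusted p = 0.000827, limma). Aars, an alanyl-tRNA synthetase, was the other of 2 lower genes among 22 in the ATF4 list. Slc16a1, a lactate and pyruvate transporter, fell from 1524 and 1473 to 455 and 423.

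Slc29a1, which carries nucleosides including adenosine across the membrane, fell from 1657 and 1726 to 690 and 689. Adk, the kinase that removes adenosine, and Entpd1, the ectoenzyme CD39 that starts adenosine production from ATP, were lower as well, at -0.83 and -0.63 on the log2 scale. Of 11 tested adenosine and purinergic genes these 3 were lower, and P2ry10, a receptor for lysophosphatidylserine, was higher. Slc29a1 was the 1 of these that passed without nontumor replicate 2.

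On the B cell side, the genes that fell included 3 of marginal zone B cells, a subset that sits at the edge of the splenic follicle under NOTCH2 signals. The list as a whole did not fall, with a median of -0.08 on the log2 scale. Of its 18 tested genes 9 lay below nontumor in both tumor libraries and 5 above, where 39.0% and 36.6% of all genes did. Counting the tumor libraries as 2 samples gave 5 lower and 3 higher. Asb2, an E3 ligase subunit induced by Notch, fell from 1869 and 1951 normalized counts to 1132 and 1133, and Dtx1, a Notch target, from 7312 and 6617 to 4665 and 4731. Cd36, a scavenger receptor of marginal zone cells that macrophages also make, fell from 3047 and 3232 to 2024 and 2060. Of the 18 tested genes of this list 3 were lower and 0 higher, and 0 passed without nontumor replicate 2.

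Lag3, an inhibitory receptor that binds MHC class II, fell from 678 and 801 to 324 and 323 (log2 -1.19, SE 0.168, adjusted p = 0.00772, limma). It was the only call among 19 co-stimulatory and checkpoint genes, and without nontumor replicate 2 its adjusted p was 0.0562 (limma). Cd81, a tetraspanin of the B cell surface, fell from 8431 and 8999 to 5732 and 5889, and Cd24a, highest on immature B cells and also made by red cell precursors, from 29506 and 28645 to 19756 and 19102. Rsad2, an antiviral enzyme, fell from 489 and 899 to 237 and 253 and Isg15, a ubiquitin-like modifier, from 555 and 572 to 292 and 326. They were the 2 calls among 24 genes induced by type I interferon, where 5.02% of all tested genes were lower. That list did not fall as a whole, with a median of -0.06 on the log2 scale. In both tumor libraries 9 of the 24 lay below nontumor and 7 above, where 39.0% and 36.6% of all genes did. None of Cd81, Cd24a, Rsad2 and Isg15 passed without nontumor replicate 2.

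Among the genes that rose, Igj stood out by its level. It encodes the J chain, which joins IgM and IgA into polymers and is made by cells on the way to antibody secretion. Igj was at 18319 and 16540 normalized counts in nontumor and at 42735 and 42448 in tumor, which is 2.45-fold higher (log2 1.29, SE 0.164, adjusted p = 0.00461, limma). Both groups were narrow and lay well apart. Without nontumor replicate 2 the difference just missed the threshold (adjusted p = 0.052, limma).

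Txndc5, a protein disulfide isomerase of the secretory pathway, rose from 4560 and 4406 to 6472 and 6610. These were 2 of 19 plasma cell genes called higher, with 0 lower and a median of 0.42, and 10 were higher and 1 lower where the tumor libraries were counted as 2 samples. Without nontumor replicate 2, 0 of the 19 passed. Irf4, the factor that drives plasma cell entry, was at 4119 and 3377 against 6591 and 6742 (adjusted p = 0.0821, limma), and Sdc1, the plasma cell surface marker CD138, at 359 and 336 against 525 and 487 (adjusted p = 0.0723, limma). Of 32 genes for folding and translocation in the endoplasmic reticulum 0 were called.

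Among genes of cell position and early activation, Cxcr4, Rgs1 and Cd69 rose. Cxcr4, the receptor for CXCL12, rose from 8352 and 6918 normalized counts to 16300 and 16785 (log2 1.12, SE 0.146, adjusted p = 0.00516, limma). Rgs1, which shortens chemokine receptor signals, rose from 501 and 437 to 956 and 964. Cd69, an early activation antigen that removes the S1P exit receptor from the surface, rose from 3764 and 2599 to 7955 and 7940 (log2 1.35, SE 0.251, adjusted p = 0.0223, limma).

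Of 24 tested homing genes Cxcr4 and Rgs1 were the 2 called. Cd69 was the only call among 28 immediate early genes, and it did not pass without nontumor replicate 2 (adjusted p = 0.116, limma), unlike Cxcr4 (adjusted p = 0.0402, limma). The immediate early list turned with 1 library: 4 were higher and 0 lower without nontumor replicate 1, with a median of 0.59, and 0 higher and 2 lower without nontumor replicate 2, with a median of 0.04. Nr4a1, a nuclear receptor induced by antigen receptor signals, was at 3564 and 1695 against 6621 and 6825 and did not pass (adjusted p = 0.0917, limma), with a 2.10-fold gap between the nontumor libraries.

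Genes that respond to glucocorticoids were split. Tsc22d3, which encodes the hormone-induced leucine zipper protein GILZ, rose from 15967 and 11728 normalized counts to 32320 and 32516 (log2 1.24, SE 0.223, adjusted p = 0.0196, limma). Zfp36l2, an RNA-binding protein that shortens transcripts with AU-rich elements, rose from 5517 and 5150 to 11553 and 11572, and Cxcr4 is on this list too. Mt2, a metallothionein, fell from 190 and 208 to 57.4 and 51.3. These are 3 higher and 1 lower of 21, with a median of 0.15. Tsc22d3 did not pass without nontumor replicate 2 (adjusted p = 0.106, limma), nor did Mt2 (adjusted p = 0.222, limma).

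Factors that hold resting B cells in their naive state gave 3 higher and 0 lower of 22, with a median of 0.36. Besides Zfp36l2 these were Zfp36l1, its close relative (10971 and 9162 against 15466 and 15688), and Bach2, a repressor of plasma cell differentiation (2127 and 2049 against 3146 and 3104). Zfp36l2 was the 1 that passed without nontumor replicate 2. Counted as 2 samples, 11 of the 22 were higher and 0 lower. Btg1, an antiproliferative factor, was at 38171 and 40626 against 53686 and 53686, a difference of 0.45 on the log2 scale that did not pass (adjusted p = 0.0811, limma).

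Clock genes gave 2 higher of 15: Per2, a repressor of the clock, rose from 106 and 101 to 209 and 202, and Bhlhe40, another clock repressor that is also on the hypoxia and B-1 cell lists, from 1187 and 1239 to 1979 and 1963. A list of TGF-beta and Id genes gave 2 higher of 13, Smad7, which blocks the receptor (856 and 812 against 1196 and 1256), and Skil, a repressor of SMADs (1384 and 1368 against 2148 and 2162). Bambi, a decoy receptor of the same family that was among the leading rises by the naming rule, rose from 63.9 and 62.4 to 148 and 163. None of these 5 passed without nontumor replicate 2.

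The other leading rises were mixed in kind. Gvin1, a very large interferon-inducible GTPase with near copies in the genome that make its count uncertain, rose from 2438 and 1428 normalized counts to 7035 and 5583. Samd9l, an antiviral factor, rose from 2727 and 2095 to 6764 and 6663. Zfp318, a zinc finger protein needed for surface IgD, rose from 2218 and 1818 to 4612 and 4694 (log2 1.21, SE 0.223, adjusted p = 0.0214, limma). None of these passed without nontumor replicate 2, where Gvin1 came nearest (adjusted p = 0.0549, limma).

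Lifr, a receptor chain for leukemia inhibitory factor, rose from 148 and 124 to 351 and 387. Ffar1, a fatty acid receptor, rose from 63.9 and 39.5 to 139 and 144, Chst1, a sulfotransferase, from 34.5 and 19.1 to 130 and 152, and Spon1, an extracellular matrix protein, from 20.4 and 22.9 to 63.5 and 67.8. These 4 did not pass without nontumor replicate 2 either.

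The steepest rises started from 0 or 1 read. Amy2a5, a pancreatic amylase with near-identical copies, had 0 reads in both nontumor libraries and 285 and 341 reads (248 and 313 normalized counts) in tumor, at least 73.2-fold higher against a floor of 3 reads per library. Pnlip, pancreatic lipase, had 0 reads in nontumor and 42 and 43 in tumor, at least 9.92-fold higher. Both also had 0 reads in WT nontumor and were present in WT tumor, at 48.4 and 53.5 normalized counts for Amy2a5. Amy2a5 passed without nontumor replicate 2 and Pnlip did not (adjusted p = 0.0568, limma). Of 12 pancreas and epithelial genes 6 reached the filter for testing, Amy2a5 and Pnlip through the tumor libraries alone. Those 2 were called higher, so this count is not evidence about the list. Cela1, an elastase that is not confined to the pancreas, fell from 1339 and 1574 to 654 and 665.

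H2-Q6, an MHC class I gene of a family of near copies, had 1 read over both nontumor libraries against 217 and 625 in tumor. The ratio was 589 (exact 95% interval 105 to 23300, counting error only), and the tumor libraries, otherwise so alike, differed 3.03-fold here. Averaging the tumor libraries kept this gap out of the spread of the main test. H2-Q6 reached the filter for testing through libraries other than EBi3KO nontumor.

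**Figure D4:**
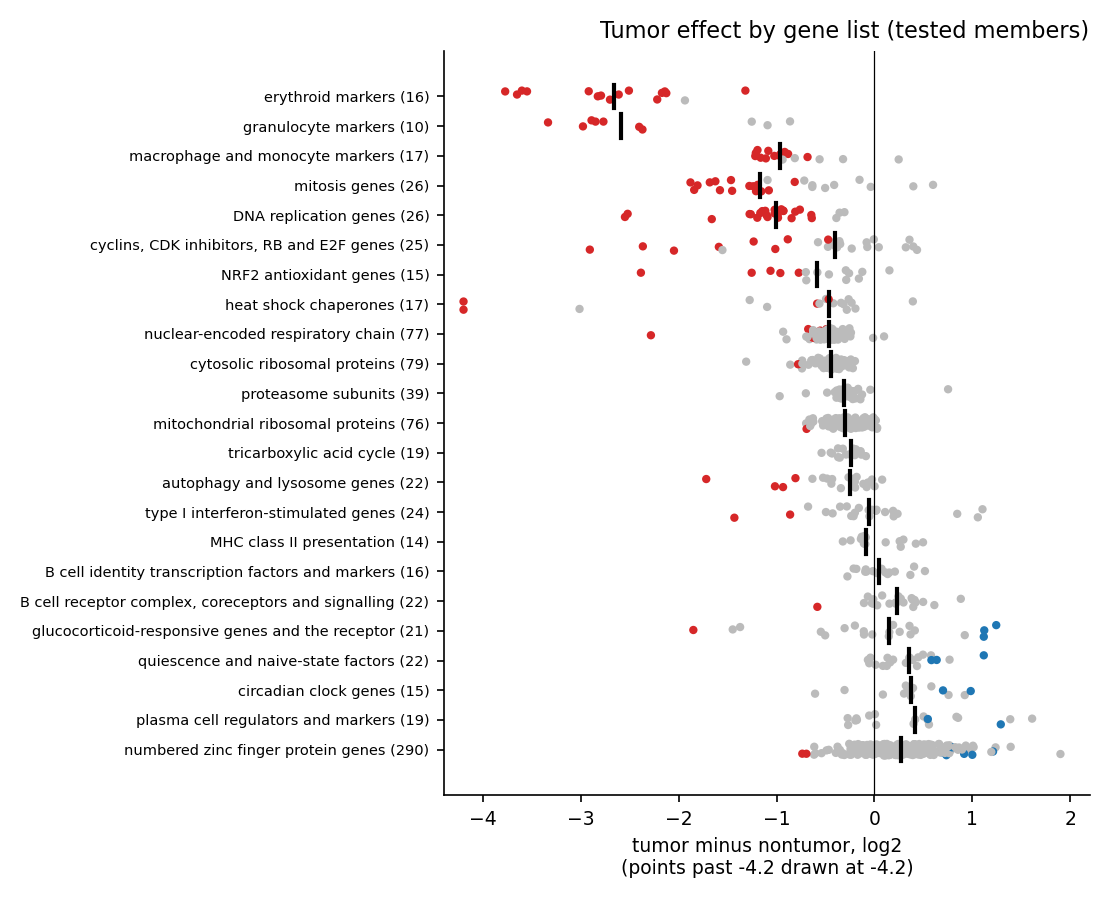
Tumor minus nontumor in EBi3KO (x axis, log2) for the tested members of 23 gene lists, with the number of members in parentheses, 1 point per gene (red lower, blue higher, grey not past the test) and black bars at the medians. Hspa1a and Hspa1b lie past the left edge and are drawn on it. Medians run from -2.66 for erythroid markers to 0.42 for plasma cell genes.

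Programs that define the B cell gave calls at about the share of all genes (5.02% lower and 0.615% higher), so nothing is read from their counts. The antigen receptor list gave 1 lower of 22 (Cd81), or 11 higher and 1 lower with the tumor libraries as 2 samples, B cell identity factors 0 of 16, MHC class II presentation 0 of 14, and the receptors, kinases and STATs of the IL-35 and IL-27 pathway 0 of 23, among them Stat3 at 2900 and 2934 against 3674 and 3609 (adjusted p = 0.109, limma) and Socs3 at 327 and 269 against 532 and 500 (adjusted p = 0.0581, limma). Toll-like receptors (0 of 16), NF-kB genes (0 of 20), BAFF receptors and BCL2 family genes (0 of 14) and genes induced by interferon gamma (0 of 20) had no calls either. Of 14 regulatory B cell genes only Entpd1 was called. Il10 was at 20.4 and 19.1 against 40.0 and 56.8 and did not pass (adjusted p = 0.126, limma). With 1 averaged tumor sample, a difference that misses the threshold is not shown to be absent.

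Most EBi3KO changes went the same way in WT mice. Of the 653 genes that were lower with the tumor in EBi3KO, 636 (97.4% of them, 12.6% of the 5040 lower in WT) were lower in WT as well and 3 were higher. Of the 80 higher genes 65 (81.2% of them, 1.31% of the 4964 higher in WT) were higher in WT and 3 lower. These overlaps are to be read against WT calls at 5040 genes lower and 4964 higher of the 13011 tested. Both effects come from the same fit and share its estimate of each gene's spread. The WT tumor libraries have a female expression pattern and another title prefix, while the EBi3KO groups and WT nontumor have neither, so the tumor effect in WT and its difference from EBi3KO carry both.

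The size of the effects differed at 4990 genes (38.4%), in either direction. Of the 653 lower genes 354 differed, and 342 of these fell further in WT. Of the 80 higher genes 43 differed, 30 rising further in WT and 13 further in EBi3KO. Without WT tumor replicate 2 the effects differed at 2265 genes. The effect on Rhd, for example, was -3.90 on the log2 scale in EBi3KO and -5.35 in WT, and that on C1qa -1.22 and -4.49. Ccne2 was at -2.91 and -2.97, with no difference past the test (adjusted p = 0.843, limma).

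Igj went the other way. It was at 28844 and 24528 normalized counts in WT nontumor and at 3900 and 3145 in WT tumor, so that it fell by 2.92 in WT while it rose by 1.29 in EBi3KO (difference 4.22, SE 0.212, adjusted p = 0.000124, limma). Rgs1 was the only other list gene with calls in opposite directions, at 502 and 443 against 342 and 369 in WT, a fall of 0.41 (difference 1.44, SE 0.2, adjusted p = 0.00313, limma). Cxcr4 was level in WT, at 12295 and 10642 against 11422 and 10978, and its effect differed by 1.15 (adjusted p = 0.00477, limma). For Igj and Cxcr4 the EBi3KO nontumor libraries also started below the WT nontumor libraries.

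**Figure D5:**
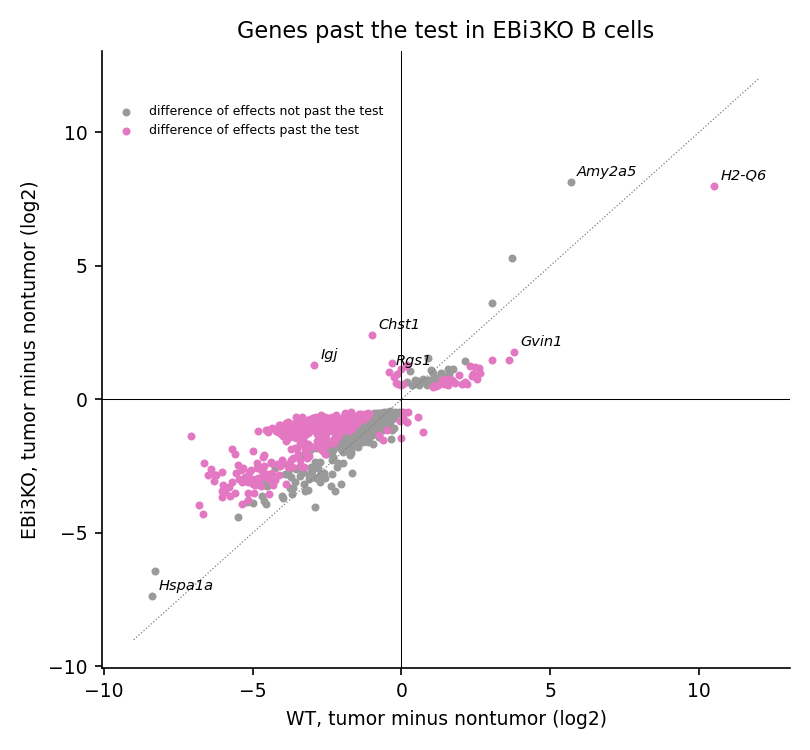
Tumor effect in EBi3KO (y axis, log2) against that in WT (x axis, log2) for the 653 lower and 80 higher genes, with genes whose effects differed past the test in pink and a dotted line of equal effects. Most lower genes lie above the line, having fallen further in WT, and Igj lies at -2.92 in WT and 1.29 in EBi3KO.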

How the data were processed

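Per the submitters' processing notes, reads of naive B cell RNA (poly(A)-selected, stranded, paired-end libraries per the labels) were quantified with Salmon against mm10 and scaled with DESeq2 (versions: not given in the sources used here). What the authors deposited is a table of 23302 entries with 1 normalized count (a signal) per gene symbol and library. Dividing each library by its smallest step gave whole reads for 100% of values within 0.01, from which depth was taken. Genes whose mean over 8 libraries reached 10, 13011 in all, were tested on log2(value + 1) with limma 3.58.1 in R 4.3.3: 1 mean per group over 7 samples, as the EBi3KO tumor libraries were averaged, with 3 residual and 4.81 prior degrees of freedom and a variance trend. Tests are two-sided, adjusted by Benjamini-Hochberg within a comparison, threshold 0.05. Log2 differences have limma standard errors and are on the log2(value + 1) scale, which understates changes of low genes. The spread behind the p-values is that between these libraries and may be technical. Intervals and floors cover counting error only.

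The 57 gene lists and the libraries compared were chosen with earlier results of these data known, so counts in lists are descriptions, to be read against the shares over all tested genes, 5.02% lower and 0.615% higher. Genes are named by a rule: Ebi3 and Il12a, the 12 largest rises and falls among called genes whose groups did not overlap and whose higher group mean was at least 50 (gene models, pseudogenes and receptor segments left out), 5 members per list, taken by smallest p, and list members with opposite calls in the genotypes. Some that meet it are not printed, and exceptions are marked. Hbb-bs, Adgre1 and Jchain stand under older symbols. Date names replace gene symbols in 27 entries, none named here. Among the alternatives, recovered reads were tested with edgeR 4.0.16 and with DESeq2 1.42.0.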

Additional observations from a re-analysis of the deposited data

Results flagged for a closer look

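For 15 of the 27 genes compared in this way (the leading rises and falls, list members called in opposite directions, Ebi3, Il12a and Cxcr4), the tumor effect in EBi3KO differed from that in WT by limma's test of the difference itself. All these differences carry the sex pattern and title prefix of the WT tumor libraries, whose part was not tested. In log2, EBi3KO minus WT, the effect was 1.45 for Rhd, 2.37 for Cldn13 and 2.84 for Slc38a5, which fell further in WT. It was -2.04 for Gvin1, -1.57 for Samd9l, -2.15 for Ffar1 and -2.52 for H2-Q6, which rose further in WT, and -4.33 for Ebi3, which rose in WT and did not pass the test in EBi3KO. It was 4.22 for Igj, 1.44 for Rgs1 and 3.39 for Chst1, which rose in EBi3KO and fell in WT. It was 1.15 for Cxcr4, 1.65 for Cd69, 1.09 for Tsc22d3 and 1.09 for Bambi, which rose in EBi3KO with no call in WT. The adjusted p-values ran from 0.000124 for Igj to 0.0469 for Bambi (limma).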

How the results depend on the processing

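No paired analysis was possible because the groups share no replicate number in the labels. Against 80 genes higher and 653 lower, the count moved by over 1.5 times with edgeR (196 higher), DESeq2 (514 higher and 1073 lower), quantile normalization (200 higher), no variance trend (25 and 311), the EBi3KO libraries alone (5 and 181), no filter (178 lower) and the tumor libraries as 2 samples (1841 and 2401). Leaving out 1 library gave 8 to 379 higher and 201 to 865 lower. Genes whose effect differed between genotypes numbered 4990, against 3008 with no filter and 2265 to 5758 with 1 library left out. The cause of these shifts was not tested. DESeq2 kept 78 of the 80 and 632 of the 653, and edgeR 80 and 652. Raising the minimum to 100 reads, a setting chosen after seeing the data, gave the tumor pair a chi-square of 2.17 per degree of freedom. Reads of low genes such as Ebi3, at 9 to 12 in the EBi3KO libraries, limit what can be seen there.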

Other observations

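Of 290 tested numbered zinc finger protein genes, a large family of DNA-binding factors, 7 were higher and 2 lower, where 0.615% of all tested genes were higher and 5.02% lower. The higher ones were Zfp318, Zfp131, Zfp59, Zfp764, Zfp12, Zfp329 and Zfp488, and the lower ones Zfp367 and Zfp703, some of them named after their values were seen. The list's median was 0.27 on the log2 scale, against -0.01 over all tested genes. In 181 of the 290 both tumor libraries lay above both nontumor libraries, and in 37 below, where 36.6% and 39.0% of all genes did. Counting the tumor libraries as 2 samples gave 75 higher and 3 lower, whereas without nontumor replicate 2 there were 0 calls. Zfp367 fell from 1045 and 944 normalized counts to 600 and 625.

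Small nucleolar RNA host genes and long RNAs kept in the nucleus gave 0 calls among 16 tested by limma, and 4 higher with the tumor libraries as 2 samples. Neat1, the scaffold of nuclear bodies called paraspeckles, was at 1466 and 485 in nontumor and 3989 and 3872 in tumor (adjusted p = 0.111, limma). Kcnq1ot1, an imprinted antisense RNA, was at 1660 and 1096 against 2821 and 2763 (adjusted p = 0.0772, limma). Of 13 tested cytokine genes 0 passed. The chemokine gene Ccl4 was at 103 and 86.6 against 172 and 210 (adjusted p = 0.083, limma), and Ccl22 at 171 and 181 against 102 and 99.0 (adjusted p = 0.137, limma).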
